A study of Mus musculus with 9 samples.

Results

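The genes described here are 40 genes of cell division, among them the cyclins and their kinase, the replicative helicase, the enzymes of nucleotide supply, and the kinases, motors and ubiquitin ligase of mitosis. They were taken by symbol from the count table, and all 40 were found among its 55401 genes. Of these, 37 were among the 12660 genes that passed the filter on low counts and entered the tests. Aurkb, Bub1 and Kif20a did not, and are described by their counts alone. A gene this low enters a test only where enough libraries hold it, so counts and medians over the 37 are descriptions.

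RNA came from the left liver lobe of male mice, in 9 samples with 1 library each, 3 in each of 3 groups. STAM + Atglistatin mice (replicates 4, 5 and 6) received 200 µg streptozotocin under the skin at 2 days of age and, for 4 weeks from the age of 4 weeks, a high-fat diet that contained Atglistatin. STAM mice (replicates 1, 2 and 3) received the same toxin and high-fat diet without Atglistatin. Chow mice (replicates 7, 8 and 9) received chow, no streptozotocin and no Atglistatin, so toxin and diet cannot be told apart in the STAM against chow comparison. The ages given here are those of the STAM + Atglistatin and STAM mice, and whether chow mice matched them in age was not checked. Streptozotocin destroys the insulin-producing cells of the pancreas, and Atglistatin inhibits adipose triglyceride lipase, the enzyme that starts the breakdown of stored triglyceride. The groups follow the sample titles and the design text. For chow and STAM samples the submitters' treatment field says the opposite and was set aside. Strain and litters are not stated in the sources read here, nor is it said that each sample came from a separate mouse, so p-values measure the spread between these samples, which may be technical.

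The libraries were made with the QuantSeq 3' kit, which yields about 1 tag from the end of each polyadenylated transcript. Levels are therefore given as CPM, counts scaled to a library total of 1e6, that are not divided by transcript length. Libraries held 7.41 to 9.91 × 1e6 counts, of which 0.26 to 0.529% lay in 7 ribosomal RNA entries. Mitochondrial transcripts took 8.64 to 9.73% of the counts in STAM + Atglistatin livers, 11 to 11.6% in STAM livers and 7.32 to 8.78% in chow livers. All 10 hepatocyte markers were counted, with 73013 to 74438 summed CPM in STAM + Atglistatin livers, 51503 to 61204 in STAM livers and 94022 to 106661 in chow livers. In RNA of whole tissue, fewer cells of a type and less RNA per cell cannot be told apart.

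A dividing cell first licenses its origins with the Mcm helicase and copies its DNA in S phase, then condenses and separates its chromosomes in mitosis. E2F transcription factors switch on genes of the first step, and the DREAM and MuvB complexes, with FoxM1, control many genes of mitosis through the cell cycle genes homology region (CHR) of their promoters, often beside CCAAT boxes. Most hepatocytes of an adult liver rest outside the cycle, and transcripts of mitosis are scarce there until tissue is lost or injured.

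Promoter sequences of 4 genes are shown, a pair of mitotic and a pair of replication genes, as examples of the motifs named above. Whether the motifs bear on the levels was not tested. Each runs 5′ to 3′ from 250 bases before to 50 bases after the RefSeq start in GRCm38.p6. Capitals mark the CHR and the CCAAT boxes in Cdc20 (chr4:118437294-118437593, minus strand) and Plk1 (chr7:122159185-122159484, plus strand). In Mcm5 (chr8:75109259-75109558, plus strand) and Mcm6 (chr1:128359656-128359955, minus strand) they mark the E2F motifs and the CCAAT boxes.
Cdc20: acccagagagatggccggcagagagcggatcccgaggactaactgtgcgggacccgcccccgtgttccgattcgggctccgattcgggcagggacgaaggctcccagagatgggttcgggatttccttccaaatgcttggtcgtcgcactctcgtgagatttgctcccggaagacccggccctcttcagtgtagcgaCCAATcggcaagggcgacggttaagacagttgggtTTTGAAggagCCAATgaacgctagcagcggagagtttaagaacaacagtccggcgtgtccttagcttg
Plk1: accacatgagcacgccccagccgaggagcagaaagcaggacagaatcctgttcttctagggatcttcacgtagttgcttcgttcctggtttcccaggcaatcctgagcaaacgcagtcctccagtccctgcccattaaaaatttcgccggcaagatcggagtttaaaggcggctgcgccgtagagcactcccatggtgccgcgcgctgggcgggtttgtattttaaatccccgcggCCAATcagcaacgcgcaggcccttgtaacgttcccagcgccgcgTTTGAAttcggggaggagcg
Mcm5: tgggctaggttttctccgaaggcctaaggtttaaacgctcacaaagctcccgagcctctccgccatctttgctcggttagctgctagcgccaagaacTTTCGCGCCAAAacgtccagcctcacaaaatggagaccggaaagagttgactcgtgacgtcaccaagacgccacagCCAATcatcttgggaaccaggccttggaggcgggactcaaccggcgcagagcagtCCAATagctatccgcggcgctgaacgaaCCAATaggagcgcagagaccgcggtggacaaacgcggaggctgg
Mcm6: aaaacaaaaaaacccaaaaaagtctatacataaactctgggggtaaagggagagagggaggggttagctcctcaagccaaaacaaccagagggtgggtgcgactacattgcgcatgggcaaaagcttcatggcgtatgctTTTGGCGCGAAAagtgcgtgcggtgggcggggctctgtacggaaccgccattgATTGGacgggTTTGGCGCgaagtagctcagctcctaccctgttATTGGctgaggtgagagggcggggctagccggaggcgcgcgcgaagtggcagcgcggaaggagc

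Cdc20 held the CHR letters TTTGAA with their first base at -18 from the start and CCAAT boxes at -53 and -8. Plk1 held a CHR at 31 and a CCAAT box at -14. Neither held an E2F motif, whereas Mcm5 held the E2F letters at -153 and, overlapping it on the other strand, at -149. Mcm6 held them at -110, overlapped on the other strand at -106, and again at -47, and neither Mcm5 nor Mcm6 held a CHR. Windows were found for 32 of the 40 genes. Ccne2, Ccna2, Foxm1, Mcm4, Aurkb, Tpx2, Kif20a and Stmn1 had none. The CHR (TTTGAA or TTCGAA, both strands) was in 17 of the 32 windows (53.1%), against 21.7% of the 27025 genes with a window. Among 16 genes of mitosis and chromatin it was in 13 (81.2%), and all 13 also held a CCAAT box, a pair found in 8.61% of all genes. Among 10 genes of the helicase, the clamp and nucleotide supply, 2 held both (20%), Mcm2 and Mcm7. The CCAAT box, with or without a CHR, was in 87.5% of the mitotic and chromatin genes and 80% of these 10, against 41.1% of all genes. The window of Ccnb1, a mitotic cyclin, held a CCAAT box and no CHR. The E2F motif (TTTCCCGC, TTTGGCGC, TTTCGCGC or TTTGCCGC, both strands) was in 5 of the 32 (15.6%), namely Cdk1, Mcm3, Mcm5, Mcm6 and Mcm7, against 2.6% of all genes, in 0 of the 16 mitotic and chromatin genes and in 0 of the 4 genes of nucleotide supply. These matches describe letters in a window of fixed length and were not tested as binding sites.

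**Figure D1:**
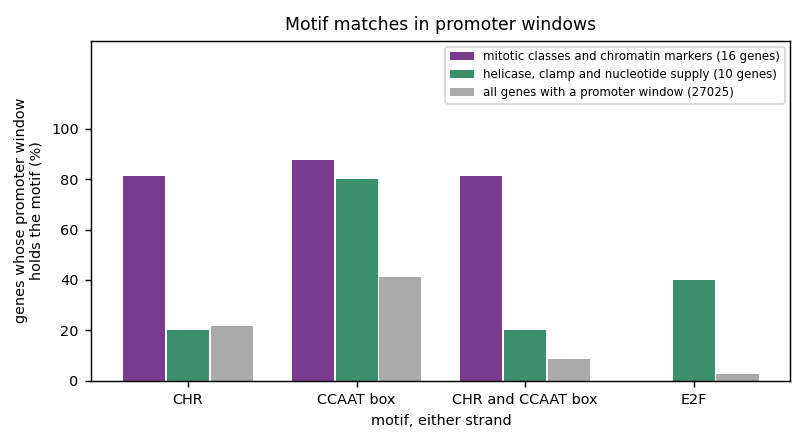
Share of genes (%) whose promoter window holds each motif on either strand, for 16 mitotic and chromatin genes, 10 helicase, clamp and nucleotide genes, and all 27025 genes with a window. The CHR with a CCAAT box was in 81.2% of the mitotic genes, 20% of the replication genes and 8.61% of all genes, and the E2F motif in 40% of the replication genes and 0% of the mitotic genes.

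Chow replicate 7 stood apart from the other 8 libraries in these genes. The summed level of the 40 genes was 165, 276 and 237 CPM in STAM + Atglistatin replicates 4, 5 and 6, 181, 207 and 196 CPM in STAM replicates 1, 2 and 3, and 357, 132 and 134 CPM in chow replicates 7, 8 and 9. Throughout the text, values of a group follow this order of replicates. The means were 226 ± 56.1 CPM in STAM + Atglistatin livers, 195 ± 12.6 CPM in STAM livers and 208 ± 130 CPM in chow livers (SD, n = 3 each). Chow replicate 7 was 1.3 times the next library, STAM + Atglistatin replicate 5 (3473 against 2663 counts, 95% counting interval 1.23 to 1.36), and 2.69 times the mean of the other chow libraries. Without chow replicate 7, all 6 libraries of the STAM + Atglistatin and STAM livers exceeded both remaining chow libraries.

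Chow replicate 7 was the highest of the 9 libraries for 22 of the 40 genes (55%), against 12.3% of all tested genes. For 9 genes it held at least 10 counts and at least 2 times the level of the next library, a pattern that 0.482% of all tested genes showed in that library. These were Foxm1, Kif20a, Cdc20, Top2a, Cenpf, Ccna2, Plk1, Prc1 and Ccnb1. In the other 8 libraries together 0 of the 40 genes met that definition, against 0.798% of all tested genes.

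**Figure D2:**
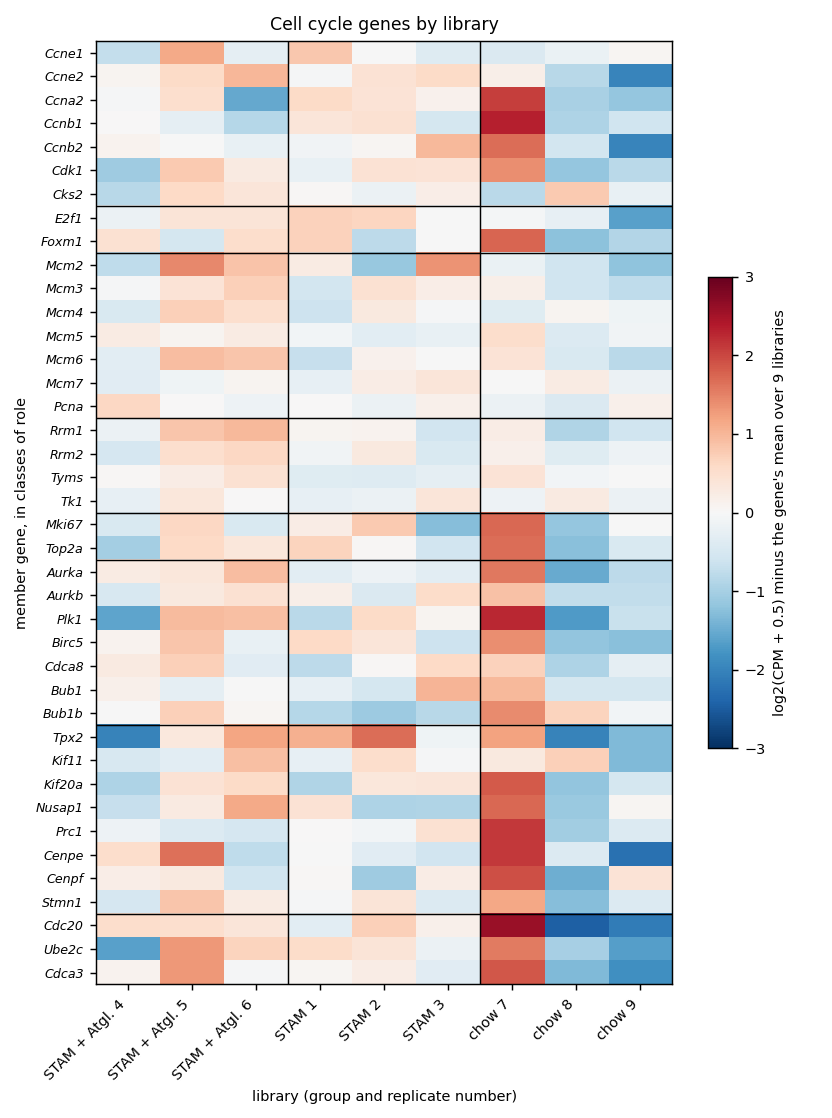
Level of each of the 40 genes (rows, in classes of role separated by lines) in each of the 9 libraries (columns), as log2(CPM + 0.5) minus the mean of the gene over the 9 libraries. Red marks levels above that mean and blue levels below it, and chow replicate 7 is highest for 22 of the 40 genes, 16 of them in the 4 mitotic and chromatin classes.

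The excess of chow replicate 7 over the other chow libraries was largest in the mitotic classes and smallest in those of DNA replication. The class named after the mitotic ubiquitin ligase holds Cdc20, Ube2c and Cdca3, the last placed there for its link to the turnover of mitotic regulators. These 3 genes summed to 9.03, 20.9 and 12.4 CPM in STAM + Atglistatin livers, 10.3, 13.6 and 8.65 CPM in STAM livers and 45.2, 2.29 and 1.48 CPM in chow livers. Chow replicate 7 was thus 24 times the mean of the other chow libraries. That ratio was 7.6 for the mitotic kinases, passenger complex and checkpoint, 6.19 for the spindle and kinetochore genes, 5.75 for the chromatin markers, 4.23 for the cyclins with their kinase partners and 3.41 for the transcription factors. It was 1.23 for the helicase and clamp and 1.19 for nucleotide supply. Within these replication classes Mcm2, Mcm3, Mcm5, Mcm6, Rrm1, Rrm2 and Tyms were higher in chow replicate 7 than in both other chow libraries. Mcm3 had 13.5 against 7.71 and 6.8 CPM, and Rrm1 had 8.65 against 3.74 and 4.73 CPM. Mcm4, Mcm7, Pcna and Tk1 were not higher there than in both. In those last classes STAM + Atglistatin replicates 5 and 6 were the highest libraries, with 88.1 and 86.6 CPM for the helicase and clamp and 60.3 and 59.6 CPM for nucleotide supply, against 68.5 and 47 CPM in chow replicate 7.

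**Figure D3:**
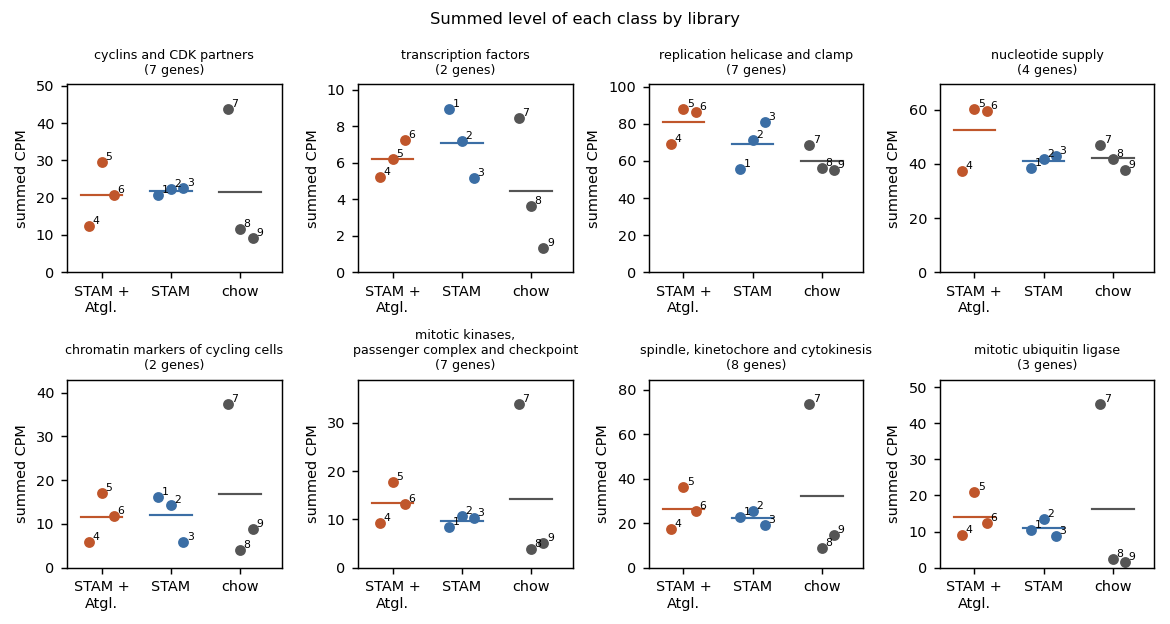
Summed CPM of each class of genes (y axis) in each library, as points numbered by replicate, with a line at the mean of each group of 3. Chow replicate 7 is the highest point in the mitotic panels (45.2 CPM for the ubiquitin ligase class, against 2.29 and 1.48 CPM in chow replicates 8 and 9). It lies below STAM + Atglistatin replicates 5 and 6 for the helicase and clamp and for nucleotide supply.

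Cyclins bind and activate the kinases that move a cell through its phases. Ccne2, a cyclin of the entry into S phase, had 3.41, 4.97 and 6.92 CPM in STAM + Atglistatin livers, 3.1, 4.49 and 5.05 CPM in STAM livers and 3.71, 1.57 and 0.443 CPM in chow livers. Chow replicates 8 and 9 were the lowest libraries, while chow replicate 7 lay inside the range of the other groups. Its log2 fold change in STAM + Atglistatin against chow was 1.37 ± 0.56 (SE; edgeR adjusted p = 0.249). Ccne1, its paralog, ranged from 1.61 to 7.05 CPM, both within the STAM + Atglistatin group, with 2.06 to 3.1 CPM in chow livers. Cdk1, the kinase that starts mitosis, had 2.51, 10.3 and 7.03 CPM in STAM + Atglistatin livers, 4.87, 7.91 and 7.81 CPM in STAM livers and 15.9, 2.29 and 3.1 CPM in chow livers. Ccnb1, the mitotic cyclin that activates it, had 1.61, 1.24 and 0.649 CPM in STAM + Atglistatin livers, 2.21, 2.36 and 0.961 CPM in STAM livers and 10.1, 0.603 and 0.887 CPM in chow livers. For both genes chow replicate 7 was the highest and the groups overlapped. Ccna2, the cyclin of S phase and G2, and Ccnb2, another mitotic cyclin, had 5.56 and 5.76 CPM in chow replicate 7 and at most 1.66 and 3.36 CPM elsewhere. Cks2, a small subunit of the kinase complex, was highest in chow replicate 8 (3.5 CPM) and had 0.823 CPM in chow replicate 7.

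The transcription factors differed from each other. E2f1, which activates genes of DNA synthesis, had 3.71, 5.7 and 5.62 CPM in STAM + Atglistatin livers, 7.08, 6.85 and 4.21 CPM in STAM livers and 4.01, 3.5 and 1.03 CPM in chow livers. All STAM libraries lay above all chow libraries, but the difference of 1.06 ± 0.46 (log2, SE) did not pass (edgeR adjusted p = 0.285). Foxm1, which activates genes of mitosis, had 1.51, 0.518 and 1.62 CPM in STAM + Atglistatin livers, 1.88, 0.354 and 0.961 CPM in STAM livers and 4.43, 0.121 and 0.296 CPM in chow livers. Its highest and its lowest values were thus both in chow livers.

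The Mcm proteins 2 to 7 form the helicase that opens the DNA at each origin, and Pcna is the ring that holds the polymerase on it. Pcna had 28.7, 18.5 and 16.5 CPM in STAM + Atglistatin livers, 18.6, 16.4 and 20.6 CPM in STAM livers and 16.2, 13.5 and 20.7 CPM in chow livers, and the groups overlapped. Mcm2 had 2.01, 11 and 7.14 CPM in STAM + Atglistatin livers, 4.53, 1.42 and 10.2 CPM in STAM livers and 3.19, 2.29 and 1.33 CPM in chow livers. Its libraries were further apart within STAM + Atglistatin and within STAM than within chow. The difference of 1.53 ± 0.64 (log2, SE) in STAM + Atglistatin against chow did not pass (edgeR adjusted p = 0.255), and passed without the filter on low counts (1.53 ± 0.45, edgeR adjusted p = 0.0231). Only the SE differed there, and it did not pass in the other 14 alternatives. Dropping the filter moved edgeR adjusted p-values both ways. For Cdkn1a in STAM + Atglistatin against STAM it went from 0.015 to 3.06e-52, and for Bub1b in STAM against chow from 0.0772 to 0.142. Mcm6, shown for its promoter above, had 6.42, 16 and 14.8 CPM in STAM + Atglistatin livers, 4.87, 8.86 and 8.05 CPM in STAM livers and 10.9, 5.78 and 4.43 CPM in chow livers. STAM + Atglistatin replicates 5 and 6 were the highest libraries and replicate 4 lay inside the range of the other groups. Mcm5 spanned 2.29 to 4.84 CPM over the 9 libraries, with the highest value in chow replicate 7, and all STAM + Atglistatin libraries (3.42 to 3.91 CPM) lay above all STAM libraries (2.48 to 2.99 CPM). Mcm3 spanned 6.8 to 19.7 CPM, Mcm4 3.1 to 8.5 CPM and Mcm7 12.9 to 21 CPM.

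Of the genes of nucleotide supply, Rrm1, the large subunit of ribonucleotide reductase, had 6.42, 13.6 and 15 CPM in STAM + Atglistatin livers, 7.85, 8.03 and 4.81 CPM in STAM livers and 8.65, 3.74 and 4.73 CPM in chow livers. Replicates 5 and 6 of STAM + Atglistatin were the highest and the groups overlapped, with a log2 fold change of 1.02 ± 0.38 in STAM + Atglistatin against chow (SE; edgeR adjusted p = 0.182). Rrm2, the small subunit of the enzyme, was likewise highest in those libraries (11.6 and 12.6 CPM) and had 5.52 to 10 CPM elsewhere. Tyms, which makes thymidylate, had 8.93, 10.3 and 12.1 CPM in STAM + Atglistatin livers, 6.63, 6.49 and 7.09 CPM in STAM livers and 11.8, 8.2 and 8.57 CPM in chow livers. All STAM libraries lay below all libraries of the other groups, and the difference did not pass in STAM + Atglistatin against STAM (0.63 ± 0.27, edgeR adjusted p = 0.405) or in STAM against chow (-0.50 ± 0.27, edgeR adjusted p = 0.421). Tk1, the thymidine kinase of the salvage route, had 16.5, 24.9 and 19.8 CPM in STAM + Atglistatin livers, 16.5, 17.2 and 25.4 CPM in STAM livers and 17.6, 23.6 and 17.3 CPM in chow livers, and the groups overlapped.

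Mki67, the chromosome coat protein used to stain cycling cells, had 2.71, 6.22 and 2.7 CPM in STAM + Atglistatin livers, 4.64, 7.08 and 1.32 CPM in STAM livers and 13.9, 1.45 and 3.84 CPM in chow livers. Top2a, the topoisomerase that untangles copied chromosomes, had 3.21, 10.9 and 8.97 CPM in STAM + Atglistatin livers, 11.5, 7.2 and 4.57 CPM in STAM livers and 23.4, 2.65 and 5.02 CPM in chow livers. In both, chow replicate 7 was the highest and the other 8 libraries overlapped between groups. The fold change of Mki67 in STAM + Atglistatin against chow was -0.74 ± 0.66 with all libraries and 0.57 ± 0.65 without chow replicate 7 (log2, SE; edgeR adjusted p = 0.684 and 0.746).

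Among the mitotic kinases, Plk1, which matures centrosomes and acts in cytokinesis, had 0.301, 4.14 and 4 CPM in STAM + Atglistatin livers, 0.885, 3.07 and 2.04 CPM in STAM livers and 11.1, 0.241 and 1.03 CPM in chow livers. Birc5, the survivin subunit of the chromosomal passenger complex, had 3.11, 5.39 and 2.38 CPM in STAM + Atglistatin livers, 4.53, 3.78 and 1.68 CPM in STAM livers and 8.23, 0.964 and 0.887 CPM in chow livers. For Birc5 chow replicates 8 and 9 lay below the other 7 libraries. Bub1b, the spindle checkpoint kinase BubR1, had 0.803, 1.66 and 0.865 CPM in STAM + Atglistatin livers, 0.221, 0.118 and 0.24 CPM in STAM livers and 2.98, 1.57 and 0.739 CPM in chow livers. All STAM libraries lay below all others, but on 2, 1 and 2 counts, against 8, 16 and 8 counts in STAM + Atglistatin livers and 29, 13 and 5 counts in chow livers.

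The Bub1b difference was 2.44 ± 0.94 in STAM + Atglistatin against STAM (log2, SE; edgeR adjusted p = 0.319) and -3.12 ± 0.93 in STAM against chow (edgeR adjusted p = 0.0772). The DESeq2 Wald test passed the second of these (-3.20, adjusted p = 0.0358), and over the 14 alternatives in which Bub1b was tested the adjusted p ran from 0.0358 to 0.284. Aurka, a kinase of spindle assembly, had 2.01 to 3.57 CPM in STAM + Atglistatin livers, 1.2 to 1.42 CPM in STAM livers and 5.87, 0.241 and 0.739 CPM in chow livers. Cdca8, another subunit of the passenger complex, ranged from 0.844 CPM in chow replicate 8 to 3.73 CPM in STAM + Atglistatin replicate 5. Aurkb, its kinase, had at most 6 counts in the STAM + Atglistatin and STAM libraries and 10, 0 and 0 counts in chow livers. Bub1, a checkpoint kinase, had at most 8 counts in those libraries and 9, 0 and 0 counts in chow livers.

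Prc1, which bundles microtubules of the midzone, had 2.21, 1.76 and 1.62 CPM in STAM + Atglistatin livers, 2.54, 2.36 and 3.61 CPM in STAM livers and 12.5, 0.964 and 1.77 CPM in chow livers. All STAM + Atglistatin libraries lay below all STAM libraries. Its fold change in STAM + Atglistatin against chow was -1.45 ± 0.71 with all libraries and 0.45 ± 0.71 without chow replicate 7 (log2, SE; edgeR adjusted p = 0.349 and 0.825). Stmn1, which destabilises microtubules, had 5.92, 15.7 and 10.3 CPM in STAM + Atglistatin livers, 8.29, 11.3 and 6.37 CPM in STAM livers and 19.7, 3.25 and 6.35 CPM in chow livers, so chow replicates 7 and 8 were its extremes. The kinetochore motor Cenpe had 9.12 CPM in STAM + Atglistatin replicate 5 and 12.7 CPM in chow replicate 7, and at most 3.91 CPM elsewhere. The kinetochore protein Cenpf had 15 CPM in chow replicate 7 and at most 4.88 CPM elsewhere, and the spindle protein Nusap1 had 4.84 CPM there and at most 3.03 CPM elsewhere. Tpx2, which activates Aurora A on the spindle, was not highest in chow replicate 7 (4.12 CPM) but in STAM replicate 2 (5.9 CPM), with 0 and 0.296 CPM in chow replicates 8 and 9. The spindle motor Kif11 did not exceed 1.84 CPM in any library. The midzone motor Kif20a had 35 counts in chow replicate 7 and at most 11 in any other library.

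Cdc20, the activator of the anaphase-promoting complex, had 5.32, 5.18 and 4.65 CPM in STAM + Atglistatin livers, 2.76, 6.14 and 3.97 CPM in STAM livers and 23.8, 0.241 and 0.443 CPM in chow livers. It had the widest span within chow of the class, on 231, 2 and 3 counts, and the other groups lay between the chow values. Ube2c, the conjugating enzyme of that complex, had 0.602, 7.98 and 4.97 CPM in STAM + Atglistatin livers, 4.53, 4.01 and 2.52 CPM in STAM livers and 9.57, 1.21 and 0.591 CPM in chow livers. Cdca3, linked to the turnover of mitotic regulators, had 3.11, 7.77 and 2.81 CPM in STAM + Atglistatin livers, 2.99, 3.42 and 2.16 CPM in STAM livers and 11.8, 0.844 and 0.443 CPM in chow livers. For Cdc20 and Cdca3 chow replicates 8 and 9 lay below all libraries of the STAM + Atglistatin and STAM livers.

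**Figure D4:**
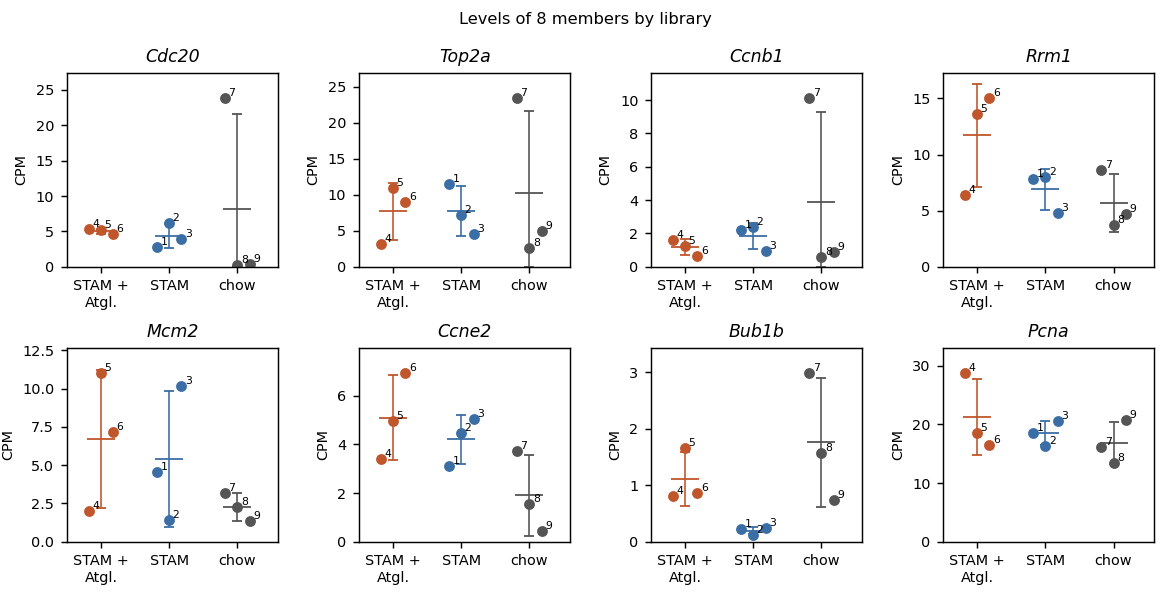
CPM of 8 genes (1 panel each, y axes start at 0) in the 9 libraries, as points numbered by replicate, with the mean and SD of each group of 3 (lower bars end at 0 where the SD exceeds the mean). Cdc20, Top2a and Ccnb1 are highest in chow replicate 7 (23.8, 23.4 and 10.1 CPM), Rrm1 and Mcm2 reach 13.6 to 15 and 7.14 to 11 CPM in STAM + Atglistatin replicates 5 and 6, and Bub1b is lowest in the 3 STAM libraries.

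With all 9 libraries, 0 of the 37 tested genes passed in any comparison (edgeR quasi-likelihood test, adjusted p under 0.05). In STAM + Atglistatin against STAM 1.79% of all tested genes passed, in STAM + Atglistatin against chow 4.08%, and in STAM against chow 3.94%. At an unadjusted p under 0.05 the counts were 2 of 37 in STAM + Atglistatin against STAM (10.2% of all tested genes), 4 in STAM + Atglistatin against chow (14.8%) and 2 in STAM against chow (14.5%). Limma-voom also passed 0 in each comparison, beside 293, 581 and 729 of all 12660 tested genes. The DESeq2 Wald test passed 0, 0 and 1, beside 309, 682 and 691 of all 12660. The authors' deposited table put 0 of 32, 0 of 35 and 0 of 35 genes with an adjusted p-value under 0.05 in the same comparisons. Over all genes with an adjusted p-value there, 282 of 12243, 625 of 13335 and 627 of 13335 were under 0.05. The median log2 fold change of the 37 genes was 0.24, 0.08 and -0.07, beside -0.00 over all tested genes each time.

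Of all 40 genes, 4 lay higher in every STAM + Atglistatin library than in every STAM library (Mcm5, Tyms, Aurka and Bub1b), where 8.58% of all tested genes did, and 1 lay lower (Prc1), where 8.45% did. Between STAM + Atglistatin and chow the groups overlapped for all 40, while 9.6% of all tested genes were separated upward and 9.03% downward. Between STAM and chow 1 lay higher (E2f1; background 10.6%) and 2 lay lower (Tyms and Bub1b; background 10.2%). These shares are near or below the background.

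The edgeR comparisons with chow changed when chow replicate 7 was left out. That library was singled out for its high values in these same genes. For genes high in it, leaving it out lowers the chow level by construction, whereas the background genes were not chosen that way. Counts and p-values without it are therefore descriptions. Without chow replicate 7, in STAM + Atglistatin against chow, 4 of 37 genes rose and 0 fell, while 2.88% of all tested genes rose and 2.91% fell. Cdc20 was higher by 3.86 ± 0.69 (log2, SE; edgeR adjusted p = 0.000902), Cdca3 by 2.77 ± 0.71 (edgeR adjusted p = 0.0209), Ccne2 by 2.28 ± 0.61 (edgeR adjusted p = 0.0267) and Rrm1 by 1.46 ± 0.40 (edgeR adjusted p = 0.0328). The median of the 37 genes was 1.11, beside 0.01 over all tested genes, and 16 had an unadjusted p under 0.05 (17.4% of all tested genes). Without it, in STAM against chow, 1 gene rose and 0 fell, while 2.68% of all tested genes rose and 2.86% fell. The gene was Cdc20, by 3.62 ± 0.69 (edgeR adjusted p = 0.00189), and its chow level then rested on 2 and 3 counts. The median was 0.86, beside 0.03, and 11 of 37 had an unadjusted p under 0.05 (17.1% of all tested genes).

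With all 9 libraries the fold change of Cdc20 was -0.72 ± 0.88 in STAM + Atglistatin against chow and -0.96 ± 0.89 in STAM against chow (log2, SE; edgeR adjusted p = 0.792 and 0.71), so its direction turned without that library. By limma-voom with sample weights it was 2.36 and 1.98 with all 9 libraries (adjusted p = 0.188 and 0.259). Leaving chow replicate 7 out turned the edgeR fold change from below to above 0 for 13 of the 37 genes in STAM + Atglistatin against chow and for 20 in STAM against chow, and the other way for 2 in each. Both comparisons use the same chow samples, and their values are not independent. Without chow replicate 7, groups did not overlap for 15 genes higher in STAM + Atglistatin than in chow (16.4% of all tested genes) and 0 lower (16.3%), and for 18 genes higher in STAM than in chow (18%) and 2 lower (18%). In STAM + Atglistatin against STAM chow enters the filter, the scaling and the estimate of spread, but not the means compared. There 0 of 37 passed without chow replicate 7 too (2.54% of all tested genes did; 4 had an unadjusted p under 0.05, beside 11.7%), and the median was 0.23.

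**Figure D5:**
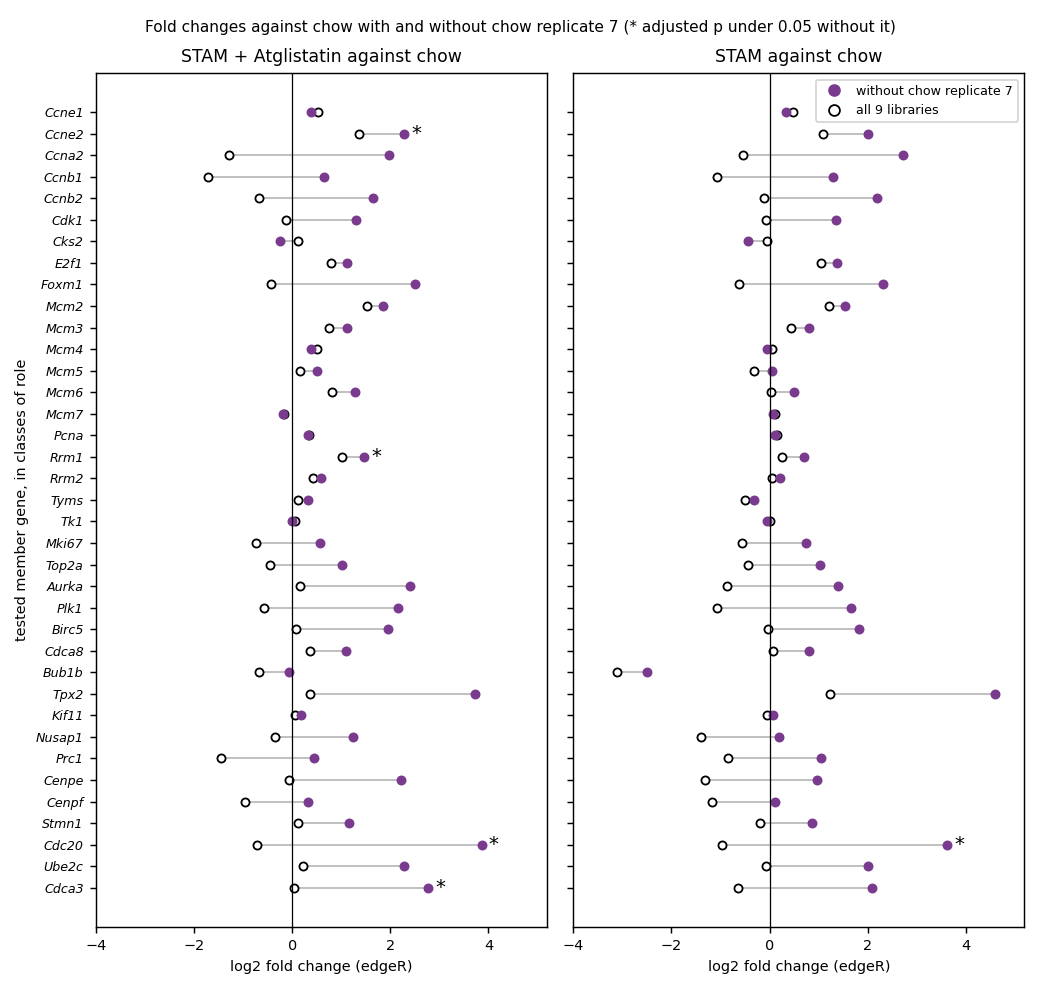
Log2 fold change (x axis, edgeR) of each of the 37 tested genes in STAM + Atglistatin against chow (left) and STAM against chow (right), with all 9 libraries (open circles) and without chow replicate 7 (filled circles). Without that library most mitotic genes lie further to the right, with Cdc20 at 3.86 (left) and 3.62 (right) instead of -0.72 and -0.96, while the circles of Mcm7, Pcna and Tk1 nearly coincide.

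Other genes of the cell cycle were described over lists of 143 genes, of which 117 were tested. In STAM + Atglistatin against STAM 3 rose and 2 fell (edgeR adjusted p under 0.05), beside 1.04% and 0.742% of all tested genes. In STAM + Atglistatin against chow 4 rose and 1 fell, beside 2.1% and 1.97%, and in STAM against chow 3 rose and 0 fell, beside 1.95% and 1.99%. The 8 genes that passed in at least 1 comparison were Cdkn1a, Ccng1, Mdm2 and Plk3 of the list of CDK inhibitors and p53 targets, Ccnd1 and Ccnd3 of the G1 list, Wee1 of the mitosis list and Mcm10 of the replication list. Cdkn1a, the CDK inhibitor p21, had 169, 154 and 140 CPM in STAM + Atglistatin livers, 22.1, 20.4 and 30 CPM in STAM livers and 50.4, 2.89 and 6.35 CPM in chow livers, so chow replicate 7 again exceeded the other chow libraries. It was higher by 2.67 ± 0.56 in STAM + Atglistatin against STAM (log2, SE; edgeR adjusted p = 0.015) and by 2.92 ± 0.57 in STAM + Atglistatin against chow (edgeR adjusted p = 0.00493). The first of these calls was lost without STAM + Atglistatin replicate 4 or 5 or any of the STAM libraries (log2 fold change 2.56 to 2.86, edgeR adjusted p = 0.0508 to 0.121) and by DESeq2 (adjusted p = 0.106). It held in 9 of 15 alternatives. Among them were the fit to the compared groups only (edgeR adjusted p = 6.71e-10) and limma-voom (adjusted p = 5.6e-07). Without chow replicate 7 the difference was 2.67 ± 0.18 (edgeR adjusted p = 2.86e-09). Without chow replicate 7 Cdkn1a was higher by 5.09 ± 0.27 in STAM + Atglistatin against chow (edgeR adjusted p = 2.87e-11) and rose by 2.42 ± 0.26 in STAM against chow (edgeR adjusted p = 2.15e-06), where it did not pass with all libraries.

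Ccng1, cyclin G1, a p53 target, had 111, 79.3 and 100 CPM in STAM + Atglistatin livers, 43.5, 44.4 and 40.7 CPM in STAM livers and 23.6, 25.8 and 22.2 CPM in chow livers. The 3 groups did not overlap, and it rose in STAM + Atglistatin against STAM (1.18 ± 0.15, edgeR adjusted p = 0.000129) and in STAM against chow (0.84 ± 0.15, edgeR adjusted p = 0.00269). Ccnd1, cyclin D1 of the entry into the cycle, had 228, 274 and 162 CPM in STAM + Atglistatin livers, 94, 102 and 71.1 CPM in STAM livers and 206, 106 and 114 CPM in chow livers. It rose by 1.31 ± 0.23 in STAM + Atglistatin against STAM (log2, SE; edgeR adjusted p = 0.00298). Wee1, the kinase that holds Cdk1 inactive, had 45.9, 39.8 and 23.7 CPM in STAM + Atglistatin livers, 26.1, 32.9 and 22.2 CPM in STAM livers and 8.95, 12.3 and 13.2 CPM in chow livers. It rose by 1.68 ± 0.25 in STAM + Atglistatin against chow (edgeR adjusted p = 0.000405) and by 1.25 ± 0.25 in STAM against chow (edgeR adjusted p = 0.0055), and chow replicate 7 was here the lowest library.

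Mdm2, which degrades p53, rose in STAM + Atglistatin against chow (1.24 ± 0.22, edgeR adjusted p = 0.00208), and Ccnd3, cyclin D3, in STAM against chow (0.60 ± 0.14, edgeR adjusted p = 0.019). Mcm10, a replication initiation factor, fell in STAM + Atglistatin against STAM and against chow (-0.68 ± 0.16 and -0.62 ± 0.16, edgeR adjusted p = 0.0297 and 0.0304). Mcm10 had 76.5, 78.9 and 64.4 CPM in STAM + Atglistatin livers, 127, 114 and 111 CPM in STAM livers and 85, 134 and 120 CPM in chow livers. The helicase genes Mcm2 to Mcm7 had at most 21 CPM, and whether reads of another transcript enter the Mcm10 counts was not tested. Plk3, a stress kinase, fell in STAM + Atglistatin against STAM (-1.16 ± 0.26, edgeR adjusted p = 0.0243). Without chow replicate 7 the counts were 4 higher and 2 lower in STAM + Atglistatin against STAM (1.41% and 1.13% of all tested genes), 9 higher and 1 lower in STAM + Atglistatin against chow (2.88% and 2.91%), and 8 higher and 0 lower in STAM against chow (2.68% and 2.86%). Of 56 further genes of mitosis, 37 of them tested, 26 were highest in chow replicate 7, where 12.3% of all tested genes were. The summed level of the 56 was 340, 373 and 317 CPM in STAM + Atglistatin livers, 306, 338 and 316 CPM in STAM livers and 429, 239 and 280 CPM in chow livers. Of 47 further genes of replication, 4 were highest in chow replicate 7, a smaller share than over all tested genes.

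Some lists of markers of cells other than hepatocytes also had high sums in chow replicate 7, mainly those of stellate cells and recruited macrophages. The 10 stellate cell and fibroblast markers summed to 866 CPM in it, against 440 to 627 CPM in the other 8 libraries, and 8 of the 10 were highest there. The 11 markers of recruited macrophages and monocytes summed to 226 CPM, against 110 to 184 CPM, with 7 of 11 highest there. Lyz2 alone gave 123 of the 226 CPM. Ccr2 and Spp1 were lowest in chow replicate 7, at 2.16 CPM (2.22 to 4.53 CPM elsewhere) and 12.9 CPM (15.2 to 31.6 CPM elsewhere). Over all tested genes 12.3% were highest in that library. The 6 cholangiocyte markers summed to 55.7 CPM, against 27.7 to 38.1 CPM, with 1 highest there. This was Sox9 (50.5 CPM, against 20.3 to 32.6 CPM), while Krt19, Krt7, Epcam, Cldn7 and Cftr had at most 2.47 CPM in chow replicate 7. The 8 erythroid markers summed to 1002 CPM, against 463 to 791 CPM, with 3 highest there (Hba-a1, Hba-a2 and Hbb-bs). Alas2 and Klf1 were lower in chow replicate 7 than in both other chow libraries. Hepatocyte markers summed to 94022 CPM in chow replicate 7, against 105960 and 106661 CPM in the other chow libraries. The 7 Kupffer cell and 8 endothelial markers had 0 genes highest there, at 290 and 344 CPM. Neutrophil, T and NK cell, and B cell markers summed to at most 18 CPM in any library, and Igf2, Ly6g and Mzb1 were at 0 counts throughout. Immature hepatocyte markers summed to 35.7 to 47.2 CPM in STAM + Atglistatin livers, 25.3 to 34.4 CPM in STAM livers and 14.9, 6.03 and 8.57 CPM in chow livers, with 0 of 8 highest in chow replicate 7. The part of these cells in the levels of the cell cycle genes was not tested.

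Reads of some genes could be shared with a neighbour, since the strand setting of the counting is not given in the sources used here. In the GENCODE M21 annotation (GRCm38), 11 of the 40 genes overlapped a counted gene on the other strand and 3 a counted gene on the same strand. Cdc20 overlaps Elovl1, which had 59.2, 44.6 and 41.1 CPM in STAM + Atglistatin livers and 38.8, 47.2 and 47.6 CPM in STAM livers. In chow livers Elovl1 had 60.5, 58.8 and 49.8 CPM. Both genes were highest in chow replicate 7, and whether they share reads was not tested. Ccne2 overlaps Ints8, Prc1 overlaps Rccd1, Tk1 overlaps Afmid, and Mcm7 overlaps Cops6 and Ap4m1. Pseudogenes named after Ccnb1, Ccnb2, Pcna and Tyms exist, and the values of these 4 genes are uncertain to that extent.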

How the data were processed

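Per the submitters' processing notes the authors aligned reads with STAR to GRCm38. Which counter, annotation, strand setting and rule for multiply mapped reads they used is not given in the sources used here. Raw counts per gene were deposited for each library, as were group totals, equal to the totals over libraries. The deposited table also holds the authors' log2 fold changes with the standard errors as another column and their unadjusted and adjusted p-values. A mean of scaled counts beside them was not used.

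Counts were fitted with edgeR 4.0.16 (R 4.3.3; TMM scaling, filterByExpr, quasi-likelihood test, group means over all 9 libraries). Benjamini-Hochberg adjustment ran over all 12660 tested genes, at a threshold of 0.05. The common biological coefficient of variation was 0.236. The scripts were tested on simulated data with the same spread for every gene and no outlying library. That setting is unlike that of the genes high in chow replicate 7, so the simulation gives no error rates for them. CPM rests on TMM-scaled library sizes. Counting intervals (95%) are conditional binomial ones and cover counting error only, since reads carry no molecular identifiers as far as the sources say.

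The members, their classes and the further lists were chosen with earlier results of these data known. In each class the gene with the highest mean CPM, the highest ratio of its top library to the next and the smallest p was named by rule. Mcm5, Mcm6, Tyms, Aurka, Ube2c, Cdca3 and the further cell cycle genes were singled out after their values were seen. In the promoter table Mcm7 and Prc1 have more than 1 window, and a gene counts once if any window holds the motif. Alternatives were DESeq2 size factors, library totals, no filter, the DESeq2 1.42.0 Wald test, limma-voom (limma 3.58.1) with sample weights, fits to the compared groups only, and leaving out each library.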

Additional observations from a re-analysis of the deposited data

How the results depend on the processing

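No paired analysis was possible because the groups share no replicate numbers. The number of members that passed in STAM + Atglistatin against STAM was 0 under all 15 alternatives. In STAM + Atglistatin against chow it was 1 without the filter on low counts (Mcm2) and 0 to 4 when 1 library was left out, with 4 only without chow replicate 7. In STAM against chow it was 1 by the DESeq2 Wald test (Bub1b) and 0 to 1 when 1 library was left out, with 1 only without chow replicate 7. With 1 library left out, the median log2 fold change of the members ran from -0.02 to 0.44 in STAM + Atglistatin against STAM (-0.02 without STAM + Atglistatin replicate 5), from -0.26 to 1.11 in STAM + Atglistatin against chow and from -0.51 to 0.86 in STAM against chow. The highest values against chow came without chow replicate 7. Without chow replicate 7 the direction turned for 15 members in STAM + Atglistatin against chow, 22 in STAM against chow and 0 in STAM + Atglistatin against STAM. Of the members recomputed under every alternative, 3 turned, and the cause was not tested. In STAM + Atglistatin against chow, Cdc20 was 2.36 by limma-voom and -1.29 to 3.86 with 1 library left out, Mki67 was 0.07 by limma-voom and -1.25 to 0.57, and Prc1 was -1.94 to 0.45. In STAM against chow, Cdc20 was 1.98 by limma-voom and -1.52 to 3.62. Over all tested genes the number that passed was 226 in STAM + Atglistatin against STAM (131 to 392 over the alternatives), 516 in STAM + Atglistatin against chow (309 to 758) and 499 in STAM against chow (291 to 743). Of the further cell cycle genes 2 to 7, 4 to 10 and 2 to 8 passed in the same comparisons. The summed level of the members in chow replicate 7 over the next library was 1.24 to 1.35, and 6 to 9 members were high in that library alone under other definitions. In DESeq2, 2 members had no adjusted p-value in each comparison. Low counts limit some values, as with 2 and 3 counts of Cdc20 in chow replicates 8 and 9.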
